A study of Mus musculus with 6 samples.

Results

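The cytosolic sulfotransferases and the PAPS synthases were examined in liver RNA sequencing of mice fed a NASH diet, a diet that brings on fatty liver with inflammation and fibrosis. The group was chosen by gene symbol and holds 10 of the 17460 symbols in the table, 8 sulfotransferases (Sult1a1, Sult1b1, Sult1c2, Sult1d1, Sult1e1, Sult2a8, Sult2b1 and Sult5a1) and both PAPS synthases (Papss1 and Papss2). The question was whether their mRNA differed between control and Blnc1 LKO livers. Blnc1 is a long noncoding RNA, and LKO stands for liver-specific knockout. There were 3 control and 3 Blnc1 LKO mice, all C57BL/6, 9 months of age and on the NASH diet for 24 weeks. According to the study's methods, the knockout was made by injecting an adenovirus with sgRNAs against Blnc1 into the tail vein of mice that express Cas9 constitutively. Such a virus reaches hepatocytes and poorly reaches the other liver cells, so the whole-liver RNA holds edited and unedited cells. The virus given to the control mice of this experiment and the sex of the mice are not given in the sources used here.

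Sulfation joins a sulfate group to a small molecule, which makes it more soluble in water and usually ends its activity. The donor is PAPS, which the PAPS synthases build from inorganic sulfate and ATP, and the cytosolic sulfotransferases then move the sulfate to phenols, thyroid hormones, catecholamines, estrogens, sterols, bile acids and drugs. Liver is a main site of this reaction, and in rodents several sulfotransferases of the Sult2a and Sult3a subfamilies are made at unequal levels in males and females.

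Total reads on the listed genes were between 65384969 and 89350181 per liver, and livers of the same group differed by more than counting noise, so each liver was counted as 1 replicate. The values, called normalized values here, are reads after division by each liver’s size factor. The 8 hepatocyte markers found in the table summed to normalized values between 5748520 and 6290020 in controls and between 5601260 and 6750580 in Blnc1 LKO livers, so the defining mRNAs of the labelled tissue were present. Blnc1 itself was not analysed here, so the knockout label was not checked against it. All 10 genes passed the filter on low values (1 or more in 3 or more livers), as did 17297 of the 17460 genes, and Sult2b1 was the lowest of them with 28 to 53 reads.

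Upstream sequence is shown for Sult2a8 and Sult5a1, the pair of the 10 members with the largest differences between the groups, since these are the regions where regulators of the gene could bind. It is the 250 bases before an annotated start site, taken from RefSeq on build GRCm38.p6, 5′ to 3′ on the strand of the gene, and all 10 genes matched with 15 start sites between them. Sult2a8 lies on the minus strand of chromosome 7 (chr7:14410686-14446769 in GENCODE M21) and has 2 RefSeq start sites, with upstream windows at chr7:14446588-14446837 and chr7:14438552-14438801. Sult5a1 lies on the minus strand of chromosome 8 (chr8:123140192-123158315), with its window at chr8:123158281-123158530. Capitals mark each match, on either strand, to AGGTCA, a short site read by many nuclear receptors, and to TATAAA, the core of the TATA box.
Sult2a8, start 1: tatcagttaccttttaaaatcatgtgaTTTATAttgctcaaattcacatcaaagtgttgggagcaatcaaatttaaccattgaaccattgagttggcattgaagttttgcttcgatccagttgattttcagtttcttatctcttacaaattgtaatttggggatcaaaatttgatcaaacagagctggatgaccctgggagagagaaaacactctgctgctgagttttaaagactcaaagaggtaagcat
Sult2a8, start 2: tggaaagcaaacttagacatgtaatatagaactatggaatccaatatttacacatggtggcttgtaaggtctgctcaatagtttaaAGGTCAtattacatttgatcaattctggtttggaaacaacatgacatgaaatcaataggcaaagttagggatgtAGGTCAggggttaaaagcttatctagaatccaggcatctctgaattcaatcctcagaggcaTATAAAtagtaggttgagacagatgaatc
Sult5a1: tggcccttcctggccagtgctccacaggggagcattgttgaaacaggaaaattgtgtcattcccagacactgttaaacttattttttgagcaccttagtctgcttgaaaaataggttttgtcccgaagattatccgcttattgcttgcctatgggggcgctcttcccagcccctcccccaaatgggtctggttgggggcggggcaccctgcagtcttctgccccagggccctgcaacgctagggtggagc

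The window before the second Sult2a8 start held AGGTCA at 164 to 159 and at 90 to 85 bases before the start, and TATAAA at 29 to 24 bases before it. The window before the first start held 1 TTTATA, the TATAAA letters on the other strand, at 223 to 218 bases. None of these letters stood in the Sult5a1 window, which was richer in G and C (54.4%, against 35.2% and 36.0% for Sult2a8). Among the other members, TGACCT, which is AGGTCA on the other strand, stood before Sult1e1, the first start of Sult1b1 and the second start of Papss2. Over 32851 upstream windows of the same length, 14.0% held AGGTCA on either strand and 12.4% held TATAAA. No window of the 10 genes held TTCNNNGAA, the letters read by STAT factors (7.02% of all windows), or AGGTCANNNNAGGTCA, a repeat spaced by 4 bases (0.0152% of all windows). A match of letters is a description and not a measured binding site.

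At an adjusted p under 0.05, 0 of the 10 genes differed between control and Blnc1 LKO livers in limma, edgeR or DESeq2. Over all 17297 tested genes 0.00578% passed in limma (1 gene), 0.0116% in edgeR (2 genes) and 0.486% in DESeq2 (84 genes). Before adjustment, a p under 0.05 was given by limma for 2 of the 10, Sult2a8 and Sult5a1, and edgeR and DESeq2 each gave 3, with Sult1b1 added. All of these had higher means in the knockout group. Over all genes, 5.68% passed that unadjusted threshold in limma, 2.94% higher and 2.74% lower, and 5.6% passed it in edgeR and 4.89% in DESeq2. The mean was higher in Blnc1 LKO livers for 3 of the 10 genes and lower for 7, and the median log2 fold change of the 10 was -0.042, against -0.00099 over all tested genes. Log2 fold changes are Blnc1 LKO minus control on the log2(value + 1) scale. These are whole livers, so a change in the number of cells of a type and a change in the RNA of each cell cannot be told apart.

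**Figure D1:**
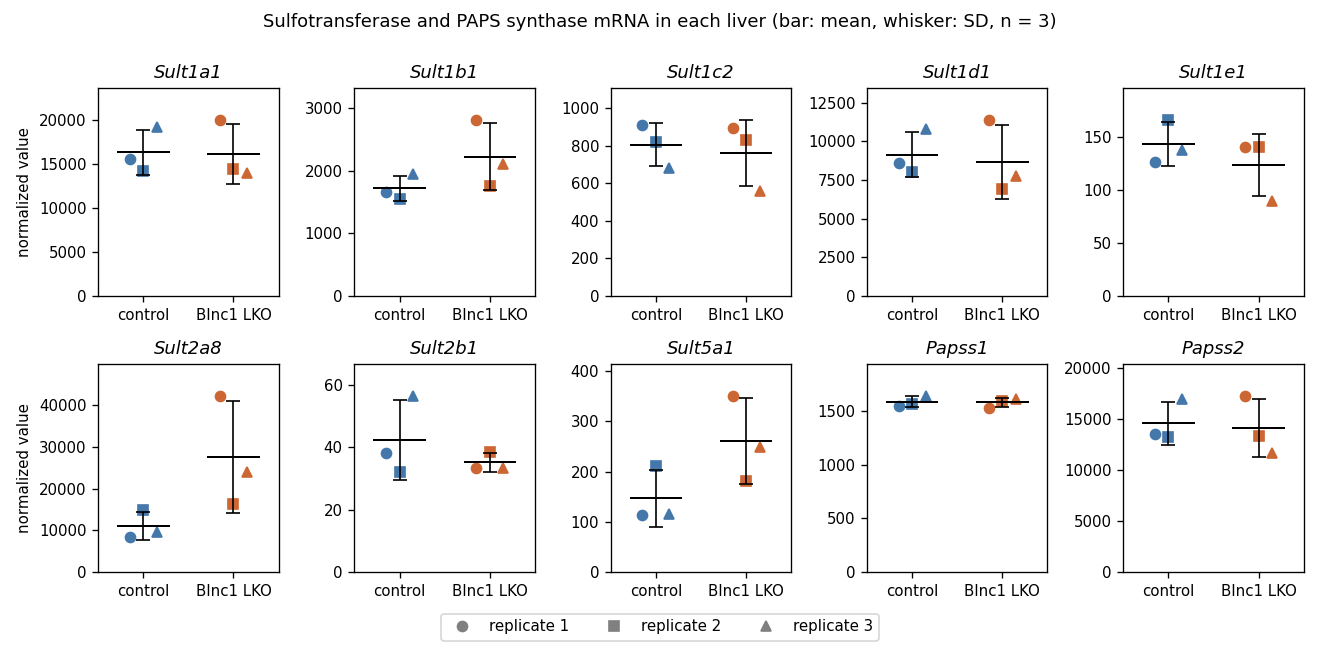
Normalized value (linear axes from 0) of each of the 10 genes in 3 control livers (blue) and 3 Blnc1 LKO livers (orange), with symbols for the replicate number, the mean as a bar and the SD as a whisker. The 3 Blnc1 LKO livers lie above the 3 control livers for Sult2a8, from 16273 to 42300 against 8501 to 14896, and the groups overlap for the other 9 genes.

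Sult2a8 encodes a liver enzyme of the hydroxysteroid subfamily that sulfates bile acids. It read 8501, 14896 and 9631 in controls 1 to 3 and 42300, 16273 and 24110 in Blnc1 LKO livers 1 to 3. Every Blnc1 LKO liver stood above every control liver, but the nearest pair, Blnc1 LKO liver 2 and control liver 2, differed little next to the spread within each group, and Blnc1 LKO liver 1 stood far above the rest. It was the only one of the 10 genes whose groups did not overlap, which held for 10.6% of all tested genes, 5.35% with Blnc1 LKO livers higher and 5.28% with them lower. The means were 11009 ± 3413 (SD, n = 3) and 27561 ± 13352 (SD, n = 3), a ratio of 2.50. The log2 fold change was 1.26 with a standard error of 0.32 and a 95% confidence interval from 0.51 to 1.996, and it did not pass after adjustment (unadjusted p = 0.00422, adjusted p = 0.614, limma). Sult2a8 stood at place 118 of the 17297 genes ordered by p. Without Blnc1 LKO liver 1 the log2 fold change was 0.89 (adjusted p = 0.785, limma), and without Blnc1 LKO liver 2 it was 1.58 (adjusted p = 0.168, limma).

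Sult5a1, a little characterised sulfotransferase, followed the livers in nearly the same order at a far lower level. Normalized values of 114, 212 and 115 were found in control livers 1 to 3, and of 351, 181 and 249 in Blnc1 LKO livers 1 to 3. The groups overlapped, because control liver 2 stood above Blnc1 LKO liver 2, while the other Blnc1 LKO livers stood above every control. Means of 147 ± 56.4 and 260 ± 85.4 (SD, n = 3 each) gave a ratio of 1.77. The log2 fold change of 0.83 had a standard error of 0.30 and a 95% confidence interval from 0.16 to 1.51, and it too was lost on adjustment (unadjusted p = 0.0214, adjusted p = 0.831, limma). Leaving out 1 liver at a time gave log2 fold changes from 0.59, without Blnc1 LKO liver 1, to 1.13, without control liver 2.

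Sult1b1, which sulfates thyroid hormones and small phenols, was the last of the 3 genes with a higher mean in Blnc1 LKO livers. It read 1661, 1552 and 1939 in the control livers and 2815, 1756 and 2099 in the Blnc1 LKO livers. Blnc1 LKO livers 1 and 3 stood above every control and Blnc1 LKO liver 2 fell among them. The means of 1717 ± 199 and 2223 ± 540 (SD, n = 3 each) differed by 0.35 on the log2 scale (standard error 0.16, adjusted p = 0.885, limma), with a 95% confidence interval from -0.012 to 0.71. Without Blnc1 LKO liver 1 the difference was 0.17 (adjusted p = 0.916, limma).

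**Figure D2:**
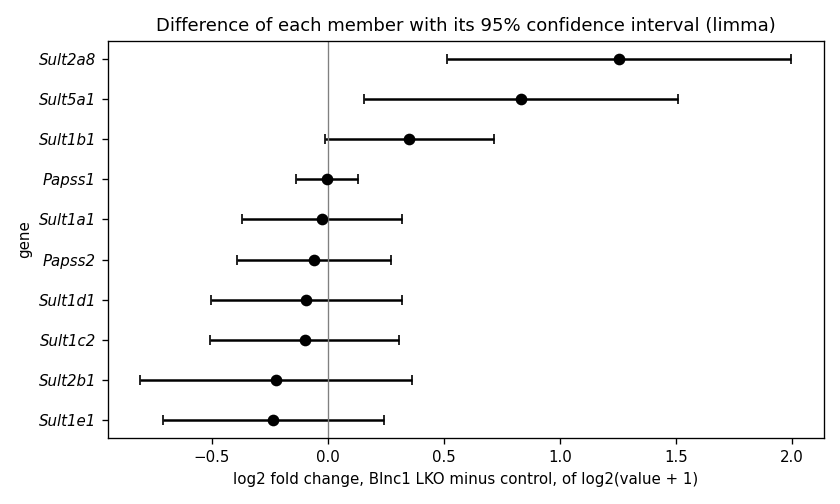
Log2 fold change (Blnc1 LKO minus control, of log2(value + 1)) of each of the 10 genes as a point, with its 95% confidence interval from limma as a line, 3 livers per group. The intervals of Sult2a8 (0.51 to 1.996) and Sult5a1 (0.16 to 1.51) lie above 0, without adjustment for the number of genes tested, and the other 8 intervals include 0.

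Sult1a1, the main phenol sulfotransferase of liver, gave normalized values of 15585, 14183 and 19159 in control livers 1 to 3 and of 20016, 14384 and 13950 in Blnc1 LKO livers 1 to 3. The groups overlapped along their whole length, with means of 16309 ± 2565 and 16116 ± 3384 (SD, n = 3 each). The 95% confidence interval of its log2 fold change ran from -0.37 to 0.32 (adjusted p = 0.999, limma). Sult1d1, which sulfates dopamine and other catecholamines in the mouse, read 8580, 8017 and 10785 in controls and 11413, 6890 and 7779 in Blnc1 LKO livers. Blnc1 LKO liver 1 was its highest liver and the other Blnc1 LKO livers were its lowest, so the group means of 9127 ± 1463 and 8694 ± 2396 (SD, n = 3 each) differed by less than the spread within either group (log2 fold change -0.09, 95% confidence interval -0.50 to 0.32, adjusted p = 0.986, limma).

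Sult1c2, another enzyme of the phenol family, read 912, 819 and 684 in controls and 894, 832 and 559 in Blnc1 LKO livers. Only Blnc1 LKO liver 3 fell outside the control values, and the log2 fold change was -0.10 (95% confidence interval -0.51 to 0.31, adjusted p = 0.984, limma). Sult1e1, the estrogen sulfotransferase, gave 126, 166 and 137 in controls and 140, 140 and 89.4 in Blnc1 LKO livers. Again Blnc1 LKO liver 3 alone fell below the controls, with a log2 fold change of -0.23 (95% confidence interval -0.71 to 0.24, adjusted p = 0.973, limma) that was -0.020 without that liver. The cholesterol sulfotransferase Sult2b1, best known from skin, read 38.2, 32.0 and 56.5 in controls and 33.3, 38.5 and 33.4 in Blnc1 LKO livers. Control liver 3 was its highest and control liver 2 its lowest, so all Blnc1 LKO values lay inside the control range (log2 fold change -0.22, 95% confidence interval -0.81 to 0.36, adjusted p = 0.973, limma). Part of the Sult2b1 exons lies over exons of other genes on the opposite strand, 243 bases or 6.15% over Lmtk3 and 78 bases or 1.97% over Gm31597. The gene of origin of reads there is uncertain, since the strand setting of the counting is not given. For Sult1a1 the overlap was 61 bases or 4.05%, with Sgf29.

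The PAPS synthases supply the donor for all of these enzymes, and Papss2 is the main form in liver while Papss1 is made in most tissues. Papss1 read 1549, 1563 and 1644 in controls and 1533, 1593 and 1613 in Blnc1 LKO livers. It was the steadiest of the 10 genes, with the highest liver 1.07 times the lowest, and the 95% confidence interval of its log2 fold change ran from -0.14 to 0.13 (adjusted p = 0.9998, limma). Papss2 gave 13541, 13284 and 17032 in controls and 17321, 13339 and 11735 in Blnc1 LKO livers. Its groups overlapped from end to end, with a log2 fold change of -0.06 (95% confidence interval -0.39 to 0.27, adjusted p = 0.989, limma). Control liver 3 and Blnc1 LKO liver 1 were the highest livers for Papss2, and the same livers were the highest for Sult1a1 and Sult1d1. The ratio of Papss2 to Papss1 within a liver, which does not depend on the scaling between livers, was 8.74, 8.50 and 10.4 in controls and 11.3, 8.37 and 7.27 in Blnc1 LKO livers. Both the highest and the lowest ratio were in Blnc1 LKO livers, and the groups differed by -0.054 on the log2 scale (two-sided exact permutation p = 0.8, where 3 against 3 livers cannot give a p below 0.1).

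Levels were compared between genes only as normalized value per kilobase of exon, given as the mean ± SD over the 6 livers. Sult1a1 stood highest at 10758 ± 1784, followed by Sult2a8 at 5872 ± 3830, Papss2 at 3863 ± 609 and Sult1d1 at 3624 ± 728. By group means, Sult2a8 stood at place 2 in Blnc1 LKO livers, with 8393 ± 4066 (SD, n = 3). In controls its mean stood at place 4 with 3352 ± 1039 (SD, n = 3), after Papss2 at 3929 and Sult1d1 at 3712. Control liver 2 was an exception, with Sult2a8 (4536) above Papss2 (3570) and Sult1d1 (3260). The other genes kept the same order of means in both groups. The ranges of these neighbours in the order overlapped between livers, and in Blnc1 LKO liver 1 the level of Sult2a8 (12881) came close to that of Sult1a1 (13282). Sult1b1 (709 ± 165), Papss1 (518 ± 13.7) and Sult1c2 (424 ± 73.7) formed a middle rank in which no neighbours overlapped in any liver. Sult1e1 (107 ± 20.3) and Sult5a1 (46.1 ± 20.3) overlapped with each other, and Sult2b1 (9.78 ± 2.31) was below Sult5a1 in every liver.

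Of the summed level per kilobase of the 8 sulfotransferases, Sult2a8 made up 14.7%, 24.7% and 13.8% in control livers 1 to 3 and 39.6%, 26.7% and 35.0% in Blnc1 LKO livers 1 to 3. The share of Sult1a1 was 58.6%, 51.2% and 59.8% in controls and 40.9%, 51.5% and 44.2% in Blnc1 LKO livers. Sult1a1 held the largest share in every liver, by a narrow margin in Blnc1 LKO liver 1. The shares add up to 100% in each liver, so a higher share of one enzyme lowers the others. The sum itself was 17648, 18400 and 21250 in controls and 32501, 18547 and 20956 in Blnc1 LKO livers. Without Sult2a8 it was 15059, 13864 and 18318 in controls and 19621, 13592 and 13615 in Blnc1 LKO livers, which overlap from end to end.

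**Figure D3:**
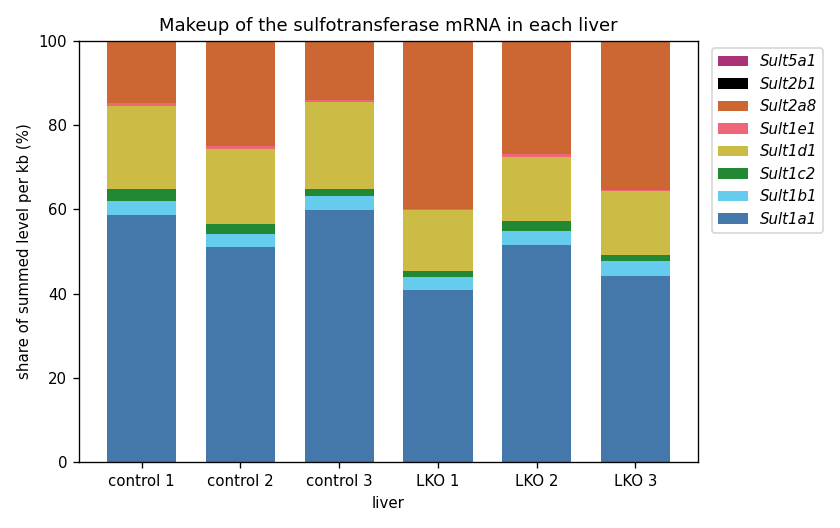
Share (%) of each of the 8 sulfotransferases in their summed normalized value per kilobase of exon, 1 bar for each liver, 3 control and 3 Blnc1 LKO. The Sult2a8 segment is 13.8% to 24.7% in controls and 26.7% to 39.6% in Blnc1 LKO livers, and Sult1a1 is the largest segment in each bar.

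The genes whose pattern over the 6 livers was most like that of Sult2a8 were Mup6, Slc22a28 and Timd4, by the root mean square difference of log2(value + 1) after each gene's own mean was removed, over 12477 genes with a mean of at least 100. The difference was 0.157 for Mup6, which encodes a major urinary protein, 0.174 for Slc22a28, of the organic anion transporter family, and 0.180 for Timd4, a receptor of resident liver macrophages. Mup6 read 91.4, 131 and 76.7 in controls and 343, 163 and 226 in Blnc1 LKO livers, and its groups did not overlap. Slc22a28 read 138, 210 and 156 against 491, 209 and 337, and Timd4 read 109, 218 and 124 against 628, 181 and 257. As for Sult5a1, control liver 2 stood above Blnc1 LKO liver 2 for both. In all 4 genes Blnc1 LKO liver 1 was the highest liver. The genes were picked for likeness to Sult2a8 over these same livers, so a shared order and group difference follow from the choice. None passed adjustment in limma (adjusted p from 0.547 to 0.851, with Sult2a8 at 0.614). Mup6 and Slc22a28 passed in DESeq2 alone (adjusted p = 0.00445 and 0.0322).

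**Figure D4:**
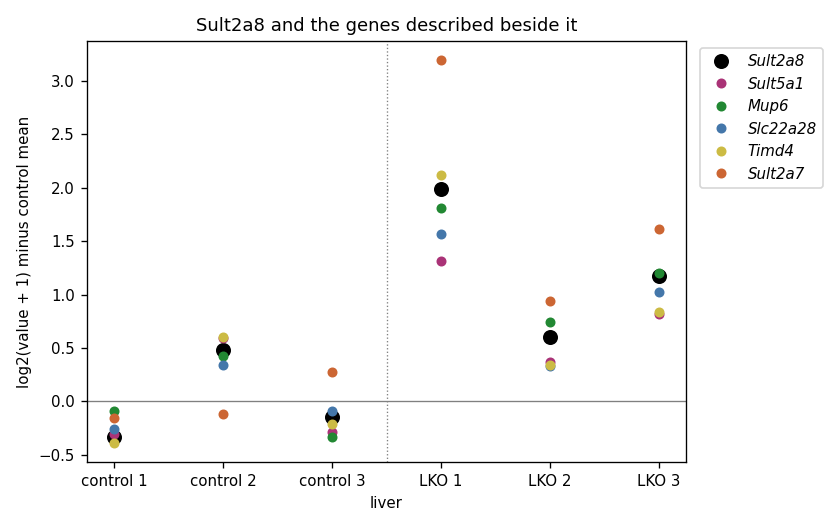
Log2(value + 1) of Sult2a8 (black), Sult5a1, Mup6, Slc22a28, Timd4 and Sult2a7 in each of the 6 livers, minus that gene's mean over the 3 control livers. Blnc1 LKO liver 1 is highest and Blnc1 LKO liver 3 second for all 6 genes, and control liver 2 is the highest control for every gene except Sult2a7. Mup6, Slc22a28 and Timd4 were picked for their likeness to Sult2a8 over these livers.

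Liver genes known to be higher in male mice were high in the same livers as Sult2a8. All 17 of them had a higher mean in the knockout group, 15 at an unadjusted p under 0.05 in limma and 0 after adjustment, and 7 without overlap between the groups, with a median log2 fold change of 0.90. Over all tested genes, 2.94% were higher at that unadjusted threshold and 5.35% were higher without overlap. This list was chosen with earlier results of these data known, and related genes, such as those of the Mup family, were counted separately. The summed normalized values of the 17 genes were 796420 to 1131840 in controls and 1142420 to 1534820 in Blnc1 LKO livers. By the median deviation of this list the livers fell in the same order as by Sult2a8. Blnc1 LKO livers 1, 3 and 2 came first, then control livers 2, 3 and 1. Control livers 3 and 1 were nearly level (-0.209 and -0.216). By the summed values the order was not the same, with Blnc1 LKO liver 3 (1534820) above Blnc1 LKO liver 1 (1511020). Of these genes only Moxd1 was listed at 0 in any liver, in control livers 1 and 2. The 15 genes known to be higher in females, with sums of 11519 to 17439 in controls and 10004 to 15576 in Blnc1 LKO livers, had 9 higher and 6 lower means in Blnc1 LKO livers. Of them, 1 was higher and 1 lower at an unadjusted p under 0.05 in limma and 0 passed after adjustment, and the groups did not overlap for 2 that were higher and 1 that was lower. Their median log2 deviation from the control mean was highest in Blnc1 LKO liver 1 (0.63) and lowest in control liver 2 (-0.30). Cyp3a41a, Sult2a1 and Sult3a1 were listed at 0 in some livers. The part of either list in the Sult2a8 difference was not tested.

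Markers of other liver cells were read in the same fit. Of 9 Kupffer cell and macrophage markers, which include Timd4, 4 were higher and 1 lower at an unadjusted p under 0.05 (sums of 60224 to 68168 in control and 64606 to 73429 in Blnc1 LKO livers). Of 8 stellate cell markers 3 were lower (97398 to 106697 against 82638 to 97833), and of 7 sinusoidal endothelial markers 3 were lower (25076 to 26671 against 24278 to 25053). Of the 8 hepatocyte markers 1 was higher and 0 lower, and their median log2 deviation from the control mean was highest in Blnc1 LKO liver 1 (0.18). Over all tested genes, 2.94% were higher and 2.74% lower at this threshold in limma. At the same threshold, 0 of 7 cholangiocyte markers (59922 to 71862 against 47475 to 71723) and 0 of 8 lymphocyte markers (1493 to 1993 against 1356 to 1923) differed in limma, and 0 markers of any of these cells passed after adjustment. None of these markers was at 0 in any liver, and their part in the sulfotransferase values was not tested.

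Sult2a7, the neighbour of Sult2a8 on chromosome 7 (minus strand, chr7:14465051-14494230), gave the largest difference among the other sulfotransferases. It read 75.5, 77.8 and 102 in controls and 783, 163 and 260 in Blnc1 LKO livers. No Blnc1 LKO liver overlapped the controls, and the order of the Blnc1 LKO livers was that of Sult2a8, but control liver 2 did not stand apart from the other controls as it did for Sult2a8. The log2 fold change of 1.92 (standard error 0.48) did not pass after adjustment (unadjusted p = 0.00361, adjusted p = 0.595, limma). It was 1.27 without Blnc1 LKO liver 1 and 2.41 without Blnc1 LKO liver 2 (adjusted p = 0.608 and 0.153, limma). No stretch of 50 bases was shared between the transcripts of Sult2a7 and Sult2a8. With both genes summed the log2 fold change was 1.26, as for Sult2a8 alone. Sult2a7 read far below Sult2a8 in every liver, so the sum follows Sult2a8 in any case. It cannot show whether reads of one gene were counted for the other. Sult2a1, Sult2a2, Sult2a3 and Sult3a1 held at most 5 reads in any liver, and Sult4a1 and Sult6b1 held 8 to 27, and no difference was detectable at this depth. With these, 7 of the 13 other sulfotransferases listed were tested, and only Sult2a7 passed an unadjusted p under 0.05.

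Genes of the other steps of sulfation were read from 6 lists, the one above included. In all lists together 84 of 95 genes were tested, and 0 passed an adjusted p under 0.05 in limma, edgeR or DESeq2. At an unadjusted p under 0.05 limma gave 1 higher and 6 lower, edgeR 1 and 5, and DESeq2 1 and 2. The groups did not overlap for 3 that were higher and 6 that were lower in Blnc1 LKO livers, and the median log2 fold change was -0.011. Over all tested genes, the groups did not overlap for 10.6%, 5.35% higher and 5.28% lower. At the unadjusted threshold 5.68% of all genes passed in limma, 5.6% in edgeR and 4.89% in DESeq2. These lists were chosen with earlier results of these data known.

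For the supply of sulfate and PAPS, 0 of 10 tested genes passed at the unadjusted threshold in limma, with a median log2 fold change of 0.0085. Among genes of this list with a mean of at least 50, Slc35b2, the transporter that carries PAPS into the Golgi, had the lowest p (log2 fold change 0.14, adjusted p = 0.891, limma). The sulfate transporter Slc26a1 came next (-0.12, adjusted p = 0.971, limma). The groups overlapped for both, and 1 other gene of the list was higher without overlap. Cysteine oxidation, which yields inorganic sulfate, had 1 of 11 genes lower at the unadjusted threshold. This was Got1, the cytosolic aspartate aminotransferase, at -0.16 (unadjusted p = 0.0486, adjusted p = 0.873, limma). Cdo1, the cysteine dioxygenase that starts this route, read 68948, 70766 and 72257 in controls and 99167, 73377 and 63173 in Blnc1 LKO livers. The control livers were close together and the Blnc1 LKO livers spread to both sides of them (log2 fold change 0.13, adjusted p = 0.973, limma).

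Sulfatases, which remove sulfate, gave 0 of 14 at the unadjusted threshold in limma (median log2 fold change -0.033). Sumf2, related to the factor that activates sulfatases, was lower without overlap (-0.13, adjusted p = 0.930, limma), and the lysosomal sulfatase Ids was at -0.09 (adjusted p = 0.971, limma). Of 26 Golgi sulfotransferases, which act on proteins and proteoglycans rather than small molecules, 3 were lower at the unadjusted threshold and 0 higher. Only Chst7 of these 3 had a mean of at least 50. Over all tested genes 2.74% were lower at this threshold, and the median log2 fold change of the list was -0.057. Chst7, a chondroitin sulfotransferase, read 158, 146 and 203 in controls and 117, 142 and 114 in Blnc1 LKO livers. Its groups did not overlap, although Blnc1 LKO liver 2 came close to control liver 2 (log2 fold change -0.43, unadjusted p = 0.0328, adjusted p = 0.851, limma). Hs3st3b1, a heparan sulfate sulfotransferase, was at 0.10 (adjusted p = 0.930, limma).

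Among 16 transcription factors that regulate sulfotransferases, chiefly nuclear receptors, 2 were lower and 0 higher at the unadjusted threshold, with a median log2 fold change of -0.022. Nfe2l2, the oxidative stress factor NRF2, was not among these 2 (log2 fold change -0.11, unadjusted p = 0.0553, adjusted p = 0.880, limma). The groups did not overlap for 1 gene of this list that was higher and 2 that were lower, Nfe2l2 included. No overlap was found for 10.6% of all tested genes.

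**Figure D5:**
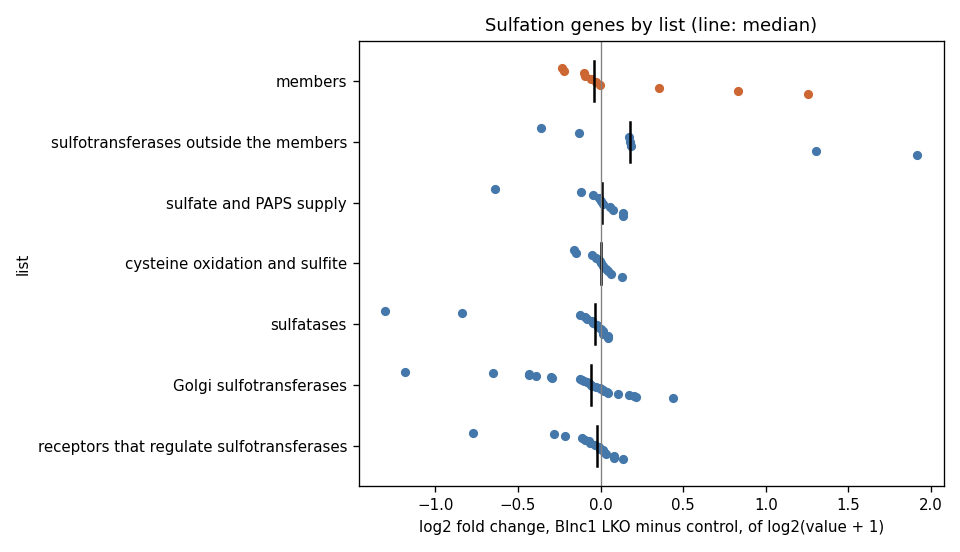
Log2 fold change (Blnc1 LKO minus control, of log2(value + 1)) of each tested gene, 1 point per gene, in the 10 members (orange) and 6 lists of other sulfation genes (blue), with the median of each list as a vertical line. Medians lie between -0.057 and 0.18, and the largest positive values are Sult2a7 at 1.92 and, among the members, Sult2a8 at 1.26. The lowest value is -1.30 among the sulfatases and -1.18 among the Golgi sulfotransferases.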

How the data were processed

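Livers of 3 control and 3 Blnc1 LKO mice were compared by sequencing of their polyA RNA. Per the labels, the authors checked reads with FastQC, mapped them to mm10 by STAR, counted gene features by HTSeq and ran DESeq2. Tool versions, the annotation and the strand setting are not given in the sources used here. The deposited values are a signal, each gene’s read count scaled by the size factor of its liver, with no correction for gene length. Columns named for wild type and knockout were taken as control and Blnc1 LKO livers of the same number. The table holds 23 symbols turned into dates, none of them a member.

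Genes that reached a value of 1 in 3 or more livers (17297 of 17460) were fitted with limma (version 3.58.1, R 4.3.3; lmFit, eBayes with trend) on log2(value + 1), with Benjamini-Hochberg adjustment and a threshold of 0.05. This pseudocount understates changes of low genes. In every liver 100% of values were whole multiples of 1 read (tolerance 0.01). The recovered reads were tested with edgeR (version 4.0.16, quasi-likelihood) and DESeq2 (version 1.42.0). Other alternatives were a pseudocount of 0.1, no filter, at least 10 reads in every liver, TMM or library size scaling, a replicate block and each liver left out. Fits were tested on simulated data. Each limma, edgeR or DESeq2 p-value sets a group difference against the spread between livers of a group. That spread is estimated partly from the other genes.

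Named genes were the 10 members, the 2 tested genes of smallest p in each of 6 lists (mean of at least 50) and the 3 genes most like Sult2a8 (mean of at least 100). A gene that this rule names is not reported here. The remaining sulfotransferases of the table, Moxd1 and genes that overlap a member were named after their values were seen. The members and lists were chosen with earlier results of these data known. Positions and exon lengths came from GENCODE M21 and sequences from RefSeq, both on the mm10 build.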

Additional observations from a re-analysis of the deposited data

How the results depend on the processing

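Of the 10 members, 0 passed an adjusted p under 0.05 under any alternative (limma, edgeR, DESeq2, other filters, pseudocount or scaling, the replicate block, or any liver left out), and likewise 0 of the tested pathway genes. Other scaling moved the median of all genes by -0.00074 (TMM) and -0.0055 (library size). With every liver kept, each named gene kept its direction. Sult2a8 lay between 1.25 and 1.32 on the log2 scale with every liver kept and between 0.89 and 1.58 with 1 left out, with adjusted p from 0.168 to 0.9997. The number of genes called over all genes was 1, and became 2 with no filter or in edgeR, 84 in DESeq2, 0 with the replicate block, and 0 to 13 with 1 liver left out (0 without control liver 1, 2 without control liver 2 or Blnc1 LKO liver 1, and 13 without Blnc1 LKO liver 2). The replicate numbers did not pair the livers (correlations of same-numbered livers -0.058, -0.019 and -0.107), and no liver correlated best with the liver of its own number in the other group. Leaving out 1 liver turned the sign of small differences. The ranges were -0.19 to 0.096 (Sult1a1), -0.23 to 0.11 (Sult1c2), -0.31 to 0.058 (Sult1d1) and -0.40 to 0.0021 (Sult2b1). They were -0.021 to 0.022 (Papss1), -0.22 to 0.066 (Papss2), -0.053 to 0.27 (Cdo1) and -0.23 to 0.085 (Papss2 to Papss1 ratio). The median of the members lay between -0.19 and 0.067 with 1 liver left out. It was above 0 without control liver 3, Blnc1 LKO liver 2 or Blnc1 LKO liver 3. With the replicate block the Papss2 to Papss1 ratio differed by -0.054 (p = 0.75, exact test flipping the signs of the 3 same-numbered pairs). So few pairs cannot give a p under 0.05 in that test. Depth limits Sult2b1, which rests on at most 53 reads a liver.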
